A study of Mus musculus with 7 samples.

Results

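The antiviral effector genes described here are 10 mouse genes taken by symbol from 56953 genes in the count files: Mx1, Mx2, Rsad2 (viperin), Bst2 (tetherin), Ifitm1, Ifitm2, Ifitm3, Rtp4, Xaf1 and Ifi44. They were measured by RNA-seq in sorted cells of B16 tumours, a mouse melanoma line, taken 5 days after treatment. In the 3 AAV-iIL12 libraries the treatment was 8 Gy of radiotherapy (RT) and AAV-iIL12, and in the 4 AAV-iLuc libraries it was the same dose and AAV-iLuc. AAV stands for adeno-associated virus, from which vectors that carry genes into cells are made. Both groups therefore had irradiation and a vector in common. Per the labels' protocols, cells lacking CD45 (a leukocyte surface protein) and CD31 (an endothelial one) were sorted with a viability stain, and poly(A) RNA was sequenced with strand kept. The labels give neither strain, age nor sex of the mice, nor the cells that the vectors entered, and the titles of the AAV-iIL12 samples also carry "WT", which the labels do not explain. The series' design text counts the libraries as mice, so the spread between libraries was taken as the spread between animals.

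Interferons are secreted proteins that bind receptors on the cell surface and, through Janus kinases, activate STAT transcription factors. Type I interferon acts mainly through a complex that holds STAT2 and IRF9 and binds the interferon-stimulated response element (ISRE), and interferon gamma mainly through STAT dimers at the gamma-activated site (GAS). The genes described here are among the known targets. Their proteins act at different steps of a virus's life: IFITM proteins hinder fusion of virus with the cell's membranes, Mx GTPases act on viral nucleocapsids, viperin makes a nucleotide that ends viral RNA chains, and tetherin holds budding virions at the cell surface. In C57BL/6 mice, the strain from which B16 was derived, Mx1 and Mx2 carry mutations that abolish the antiviral proteins, so their transcript levels say nothing of antiviral protein.

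Promoter sequence was matched by symbol in a RefSeq table on GRCm38.p6 for 7 of the 10 genes. Mx1, Mx2 and Rtp4 had no entry. The 160 bases before the annotated start are shown for 3 genes that were much higher in AAV-iIL12 (Rsad2, Bst2 and Ifi44) and for Ifitm3 and Ifitm2, a pair of neighbouring relatives that behaved differently. Each is on the gene's own strand, 5′ to 3′, ending just before the start. Capitals mark matches, on either strand, to the ISRE core or to the core that IRF proteins bind, AANNGAAA. The ISRE core is GAAA, any 2 bases and GAAA again, so that each of its matches holds an IRF core.
Rsad2, chr12:26456453-26456612, minus strand: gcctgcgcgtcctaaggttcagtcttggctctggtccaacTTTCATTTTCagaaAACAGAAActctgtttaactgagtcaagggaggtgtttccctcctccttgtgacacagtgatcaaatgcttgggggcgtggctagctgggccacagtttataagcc
Bst2, chr8:71537473-71537632, minus strand: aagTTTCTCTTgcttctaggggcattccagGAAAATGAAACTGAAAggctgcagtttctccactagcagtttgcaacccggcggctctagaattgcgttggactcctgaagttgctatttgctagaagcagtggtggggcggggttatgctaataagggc
Ifi44, chr3:151749911-151750070, minus strand: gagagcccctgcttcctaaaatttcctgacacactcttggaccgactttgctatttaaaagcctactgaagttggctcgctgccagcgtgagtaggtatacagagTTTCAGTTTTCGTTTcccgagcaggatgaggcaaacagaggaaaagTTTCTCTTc
Ifitm3, chr7:141010745-141010904, minus strand: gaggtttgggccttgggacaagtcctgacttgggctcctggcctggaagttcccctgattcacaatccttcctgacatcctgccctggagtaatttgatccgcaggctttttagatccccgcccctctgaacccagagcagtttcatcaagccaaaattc
Ifitm2, chr7:140955962-140956121, minus strand: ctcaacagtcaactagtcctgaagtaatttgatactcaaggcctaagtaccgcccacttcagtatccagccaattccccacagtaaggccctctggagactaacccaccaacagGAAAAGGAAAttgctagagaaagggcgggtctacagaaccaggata

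In the full window of 250 bases before to 50 bases after the start, the ISRE core was found in Rsad2 (1 match), Bst2 (2), Ifitm2 (1) and Ifitm3 (2), and not in Ifitm1, Xaf1 or Ifi44. It was held by 3.44% of all 32851 promoter windows. Both Ifitm3 matches lay after the annotated start, at bases 3 and 20, and the first of them, GAAAAGGAAA, had the same 10 letters as the Ifitm2 match 46 bases before its start. The IRF core was found in 6 of the 7 windows, all but Ifitm1, and in 23.9% of all windows. The GAS letters TTCNNNGAA, the same on both strands, were found in Bst2 and Ifitm3 and in 8.30% of all windows. A match is a run of letters and no evidence that a factor binds there.

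Of the 10 genes, 9 passed the filter on low counts, and 8 of them rose in AAV-iIL12 tumours: Mx1, Mx2, Rsad2, Bst2, Ifitm3, Rtp4, Xaf1 and Ifi44 (edgeR quasi-likelihood test, p under 0.05 after Benjamini-Hochberg adjustment). Over all 13990 genes tested the same rule called 23.5% higher and 23.7% lower. Of all calls 49.8% were higher, and this share was 36.0% when counts were scaled by library size alone and 38.5% with upper quartile scaling. The 9 tested genes had a median log2 fold change of 3.06, where all tested genes had a median of -0.01. In each of the 8 genes every AAV-iIL12 library lay above every AAV-iLuc library, as it did for 25.9% of all genes, while 26.7% lay apart in the other direction. Ifitm2 did not pass the test, and Ifitm1 had too few counts to be tested. Levels are given as CPM, the count scaled to a common library size with TMM factors, and log2 fold changes are AAV-iIL12 over AAV-iLuc. In bulk RNA a larger share of cells with a transcript and more transcript per cell cannot be told apart.

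**Figure D1:**
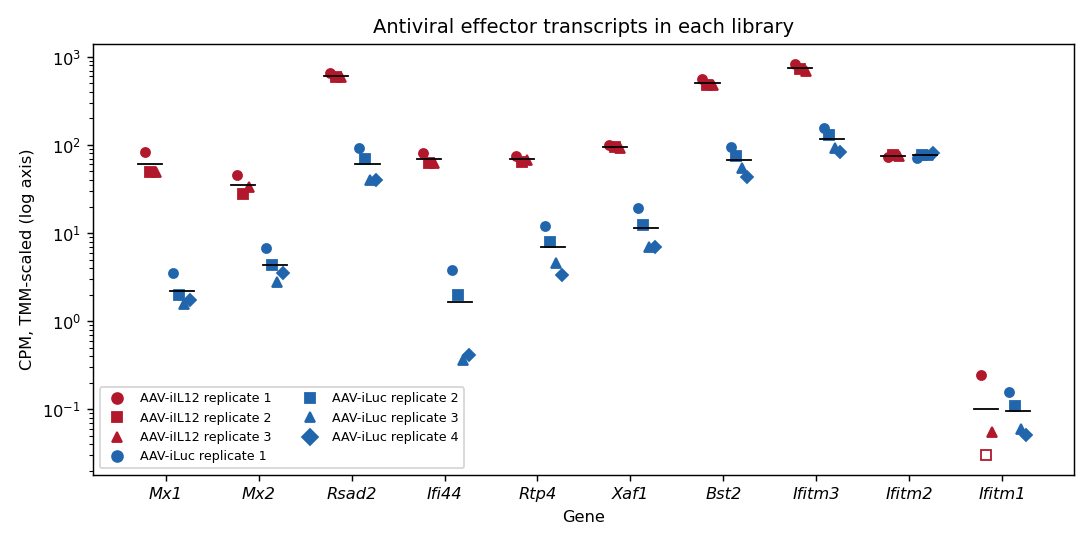
CPM on a log axis for the 10 genes in the 3 AAV-iIL12 libraries (red, left of each pair) and the 4 AAV-iLuc libraries (blue, right). Black lines are group means and the open square marks a library at 0. The groups are apart for 8 genes and overlap for Ifitm2 and Ifitm1.

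The Mx genes encode dynamin-like GTPases that lie near each other on chromosome 16. Mx1 (ENSMUSG00000000386, 97248235 to 97264107 on GRCm39, minus strand) had 83.0, 48.7 and 49.3 CPM in AAV-iIL12 replicates 1 to 3, against 3.48, 1.97, 1.55 and 1.75 CPM in AAV-iLuc replicates 1 to 4. Replicate 1 was the highest library of each group. The log2 fold change was 4.77 ± 0.27 (SE, adjusted p = 1.67e-06 in edgeR), or 27.2-fold. Mx2 (ENSMUSG00000023341, 97336508 to 97362100, plus strand) had 45.5, 27.6 and 33.4 CPM in AAV-iIL12, against 6.81, 4.39, 2.80 and 3.50 CPM in AAV-iLuc. Its log2 fold change was smaller, at 3.01 ± 0.25 (edgeR adjusted p = 1.15e-05), and again replicate 1 was the highest of each group.

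Mx1 exceeded Mx2 in every AAV-iIL12 library and was below it in every AAV-iLuc library. The log2 ratio of Mx1 to Mx2 CPM within a library averaged 0.75 ± 0.16 in AAV-iIL12 and -0.96 ± 0.12 in AAV-iLuc (SD, n = 3 and 4), a difference of 1.70. The ratios of the groups did not overlap (two-sided exact permutation test p = 0.0286, the smallest that 35 splits can give, and the same after adjustment over 4 ratios tested). Per kilobase of exon the order also turned. Mx1 stood at 17.9 ± 5.82 CPM per kb in AAV-iIL12 and 0.65 ± 0.26 in AAV-iLuc, and Mx2 at 9.83 ± 2.52 CPM per kb in AAV-iIL12 and 1.21 ± 0.48 in AAV-iLuc.

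Rsad2 encodes viperin, an iron-sulphur enzyme that converts CTP into a chain-terminating analogue. Rsad2 (ENSMUSG00000020641, chromosome 12, 26492745 to 26506451, minus strand) had 650, 588 and 598 CPM in AAV-iIL12, against 92.0, 69.0, 40.3 and 40.3 CPM in AAV-iLuc. The AAV-iIL12 libraries lay close together, while the AAV-iLuc libraries ranged more than 2-fold, with replicate 1 at the top and replicates 3 and 4 at the bottom. Rsad2 rose by 3.34 ± 0.26 on the log2 scale (edgeR adjusted p = 8.47e-06). Its neighbour Cmpk2, which encodes a mitochondrial nucleotide kinase and starts on the other strand, rose by 3.18 ± 0.23, with 109 ± 6.75 CPM in AAV-iIL12, against 12.0 ± 5.12 CPM in AAV-iLuc. The log2 ratio of Rsad2 to Cmpk2 was nearly constant, at 2.48 ± 0.01 in AAV-iIL12 and 2.32 ± 0.04 in AAV-iLuc. That difference of 0.16 was small, but the libraries of the groups did not overlap (exact permutation test p = 0.0286, adjusted over the 4 ratios).

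Bst2 encodes tetherin, a membrane protein anchored at both ends. Bst2 (ENSMUSG00000046718, chromosome 8, 71986899 to 71990100, minus strand) had 564, 485 and 479 CPM in AAV-iIL12, against 95.8, 74.3, 55.1 and 43.8 CPM in AAV-iLuc, a log2 fold change of 2.92 ± 0.22 (edgeR adjusted p = 6.92e-06). The highest AAV-iLuc library was again replicate 1. Bst2 is also known as a marker of plasmacytoid dendritic cells in unstimulated mice. The 6 markers listed for those cells summed to 87.4 to 95.4 CPM in AAV-iIL12, against 57.3 to 66.5 CPM in AAV-iLuc. Nearly all of this was Tcf4, a transcription factor gene also used by other cell types and the only marker of the 6 that could be tested, which rose by 0.61 on the log2 scale. The other 5 had between 0 and 7 counts in either group, and Siglech, a defining marker, had 0 counts in AAV-iIL12, where a count of 0 allows up to 3, and 2 counts in AAV-iLuc, both in replicate 1. The part of such cells in the level of Bst2 was not tested.

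**Figure D2:**
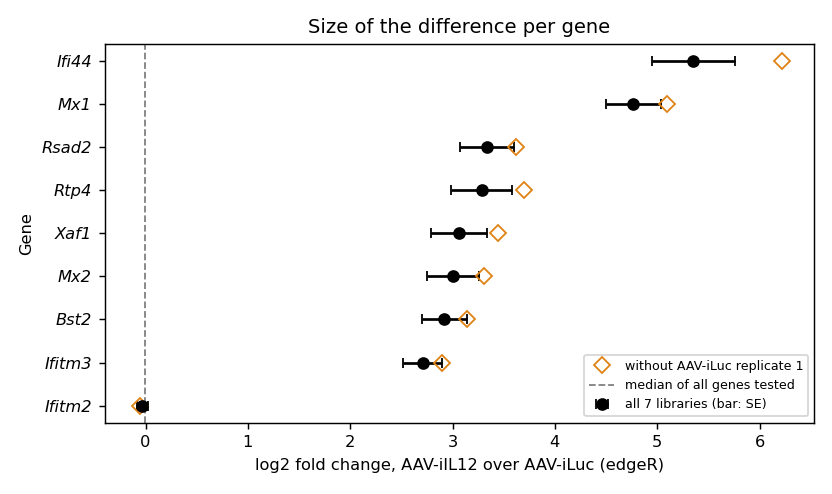
Log2 fold change of AAV-iIL12 over AAV-iLuc for the 9 tested genes, with SE (black), and the same without AAV-iLuc replicate 1 (orange diamonds). The dashed line is the median of all genes tested, at -0.01. Ifi44 and Mx1 lie furthest to the right at 5.35 and 4.77, and Ifitm2 lies at -0.03.

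The IFITM family, small membrane proteins of endosomes and the cell surface, did not move as a group. Ifitm3 (ENSMUSG00000025492, chromosome 7, 140589499 to 140590683, minus strand), the member best known for blocking entry of influenza virus, had 840, 723 and 698 CPM in AAV-iIL12, against 157, 129, 92.9 and 83.0 CPM in AAV-iLuc. It rose by 2.71 ± 0.19 on the log2 scale (edgeR adjusted p = 5.51e-06). Ifitm2 (ENSMUSG00000060591, 140534750 to 140535900, minus strand) had 72.3, 77.2 and 75.7 CPM in AAV-iIL12, against 71.5, 76.6, 77.7 and 81.0 CPM in AAV-iLuc. These libraries overlapped fully, and its log2 fold change was -0.03 ± 0.05 (edgeR adjusted p = 0.679). Ifitm1 (ENSMUSG00000025491, 140547134 to 140549738, plus strand) was close to undetected, with 4, 0 and 1 counts in AAV-iIL12 and 3, 2, 1 and 1 counts in AAV-iLuc. Its ratio was 0.992 with an exact 95% binomial interval of 0.248 to 3.63, which covers counting error only, so a change within that range was not detectable at this depth.

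The log2 ratio of Ifitm3 to Ifitm2 CPM averaged 3.32 ± 0.19 in AAV-iIL12 and 0.54 ± 0.49 in AAV-iLuc, a difference of 2.78. In AAV-iLuc replicate 4 the ratio was 0.04, and in no AAV-iLuc library did it exceed 1.13. The ratio of Ifitm3 to Ifitm1 differed by 2.85, a value that rests on the few Ifitm1 counts and on the prior count of 2 added to both. Both ratios gave p = 0.0286 in the exact permutation test, also adjusted over the 4 ratios, which is the smallest it can give. Since Ifitm3 separated the groups and Ifitm2 and Ifitm1 did not, these p-values repeat the difference in Ifitm3 and add no evidence. Of the other family members Ifitm5, Ifitm6 and Ifitm7 had too few counts to be tested, and Ifitm10, at 0.51 ± 0.16 CPM in AAV-iIL12, against 0.33 ± 0.17 CPM in AAV-iLuc, did not pass (edgeR adjusted p = 0.308). Genes annotated over Ifitm2, Ifitm3 and Rtp4 on either strand had at most 4 counts in any library.

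**Figure D3:**
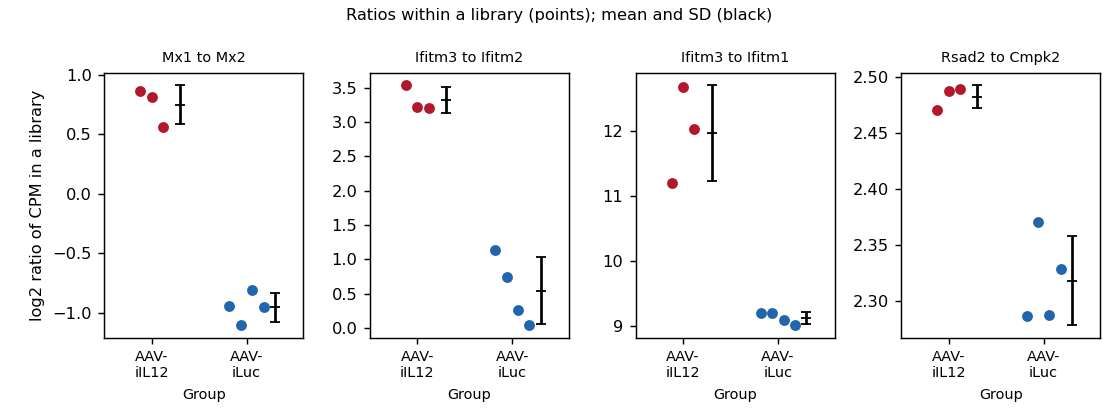
Log2 ratio of CPM between gene pairs within each AAV-iIL12 library (red) and each AAV-iLuc library (blue), with the mean and SD in black. Each panel has its own axis. Mx1 to Mx2 lies above 0 in AAV-iIL12 and below 0 in AAV-iLuc, and the difference for Rsad2 to Cmpk2 is 0.16 against 2.78 for Ifitm3 to Ifitm2.

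Rtp4, Xaf1 and Ifi44 encode interferon-induced proteins of other kinds. Rtp4 (ENSMUSG00000033355, chromosome 16, 23339041 to 23432972, plus strand), a chaperone that helps some G protein-coupled receptors to the cell surface, had 74.7, 63.7 and 67.7 CPM in AAV-iIL12, against 12.1, 8.00, 4.53 and 3.35 CPM in AAV-iLuc. It rose by 3.29 ± 0.30 (edgeR adjusted p = 1.85e-05). Xaf1 (ENSMUSG00000040483, chromosome 11, 72192455 to 72204559, plus strand), which counteracts the caspase inhibitor XIAP, had 99.3, 95.5 and 92.1 CPM in AAV-iIL12, against 19.3, 12.4, 6.91 and 6.96 CPM in AAV-iLuc. The rise of Xaf1 was 3.06 ± 0.27 (edgeR adjusted p = 1.73e-05), while its partner Xiap stood at 119 ± 7.03 CPM in AAV-iIL12, against 113 ± 5.52 CPM in AAV-iLuc, and did not pass (edgeR adjusted p = 0.291). In Rtp4 and Xaf1, as in the other antiviral genes that rose, AAV-iLuc replicates 1 and 2 lay above replicates 3 and 4.

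Ifi44 (ENSMUSG00000028037, chromosome 3, 151436559 to 151455597, minus strand) had 81.3, 62.2 and 63.0 CPM in AAV-iIL12, against 3.85, 1.97, 0.357 and 0.412 CPM in AAV-iLuc. Its log2 fold change of 5.35 ± 0.40 was the largest of the 9 and ranked 47 among all 13990 genes (edgeR adjusted p = 6.94e-06). The AAV-iLuc values rested on 74, 36, 6 and 8 counts and split into a higher and a lower pair. Without AAV-iLuc replicate 1 the log2 fold change was 6.22. The related gene Ifi44l had 0 counts in every library.

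Compared per kilobase of exon, Ifitm3 was the most abundant of the 10 genes in both groups, at 1112 ± 111 CPM per kb in AAV-iIL12 and 170 ± 50.1 in AAV-iLuc. In AAV-iIL12 it was followed by Bst2 at 564 ± 52.5, Rsad2 at 141 ± 7.70, Ifitm2 at 115 ± 3.83 and Rtp4 at 32.2 ± 2.62 CPM per kb, none of which overlapped. The next levels were Xaf1 at 20.4 ± 0.77 and Mx1, which overlapped, and Ifi44 at 11.2 ± 1.77 and Mx2, which also overlapped. In AAV-iLuc the order below Ifitm3 was Ifitm2 at 117 ± 5.997, Bst2 at 74.5 ± 25.3, Rsad2 at 13.9 ± 5.78, Rtp4 at 3.29 ± 1.85, Xaf1 at 2.43 ± 1.25, Mx2, Mx1 and Ifi44 at 0.27 ± 0.27 CPM per kb. There Ifitm3 overlapped Ifitm2, and each of the genes from Rtp4 down overlapped the next. Ifitm1 was last in both groups, at 0.09 CPM per kb. Exon lengths are those of all annotated exons of a gene, so a gene whose expressed transcript is shorter is understated.

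The genes that rose varied together between the AAV-iLuc libraries. All 8 were highest in AAV-iLuc replicate 1, which was the highest of its group for 23.3% of all tested genes. All 8 were lowest in replicate 3 or 4, which were the lowest for 25.1% and 26.2% of all tested genes. The level in replicate 1 was 1.55 (Ifitm3) to 4.21 (Ifi44) times the mean of the other AAV-iLuc libraries, with a median of 1.95, while that of Ifitm2 was 0.912 times. The median coefficient of variation over the 8 genes was 9.66% in AAV-iIL12 and 40.8% in AAV-iLuc. Within AAV-iIL12 all 8 were highest in replicate 1, which was the highest of its group for 39.7% of all genes. Mx1 and Mx2 stood apart there, at 1.69 and 1.49 times the mean of the other AAV-iIL12 libraries, against 1.06 to 1.30 times for the other 6.

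**Figure D4:**
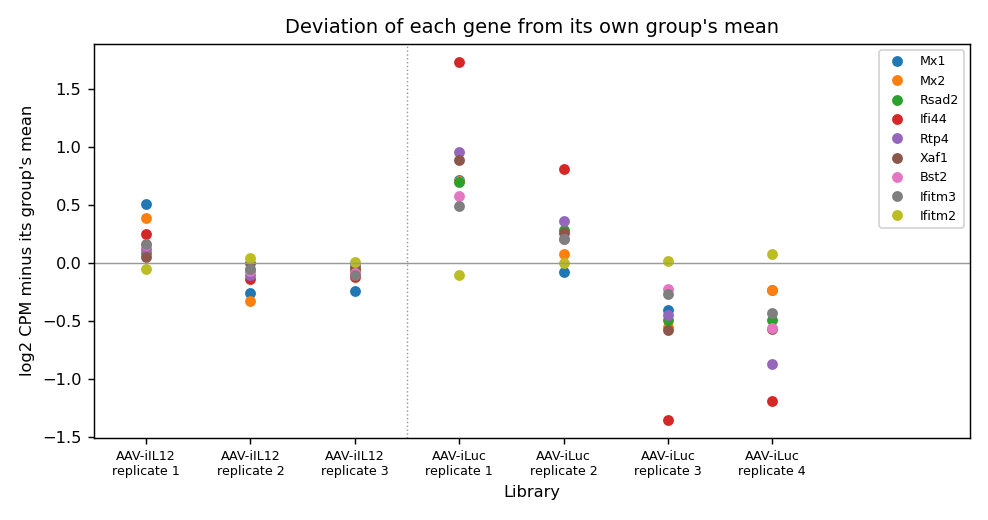
Deviation of log2 CPM from the mean of the library's own group, for the 9 tested genes in each AAV-iIL12 library (left of the dotted line) and each AAV-iLuc library (right). In AAV-iLuc replicate 1 the 8 genes that rose lie at 0.49 to 1.73 and in replicates 3 and 4 all lie below 0, while Ifitm2 stays near 0.

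Most markers of leukocytes, which the sort would remove, were also higher in AAV-iLuc replicate 1 than in the rest of its group. The 8 leukocyte markers summed to 245 to 326 CPM in AAV-iIL12, 141 CPM in AAV-iLuc replicate 1 and no more than 124 CPM in replicates 2 to 4. Most of each sum was Ptpn6, at 194 to 273 CPM in AAV-iIL12 and no more than 82.7 CPM in AAV-iLuc. Ptpn6 was the only 1 of 7 tested that rose. Lcp1, the next most abundant, stood at 32.4 to 37.6 CPM in AAV-iIL12, against 26.9 to 39.5 CPM in AAV-iLuc, and did not pass. Ptprc, which encodes CD45, stood at 1.04 to 2.44 CPM in AAV-iIL12, at 2.44 CPM in AAV-iLuc replicate 1 and at no more than 0.412 CPM in the other AAV-iLuc libraries. The 8 macrophage and monocyte markers summed to 25.5 to 40.1 CPM in AAV-iIL12, 31.7 CPM in AAV-iLuc replicate 1 and at most 18.3 CPM in the others, and 1 of the 8, C1qb, rose. The part of these cells in the levels of the antiviral genes was not tested. The 8 T and NK cell markers summed to 0.769 to 2.99 CPM in AAV-iIL12, against at most 0.832 CPM in AAV-iLuc. Fibroblast markers, 8 genes of cells that the sort would keep, summed to 58.3 to 158 CPM in AAV-iIL12, against 84.3 to 290 CPM in AAV-iLuc, and 0 of them passed. The 7 endothelial markers summed to 15.2 to 26.7 CPM in AAV-iIL12, against 19.4 to 24.9 CPM in AAV-iLuc. Nearly all of this was Vwf, the only endothelial marker tested, which did not pass. Pecam1, which encodes CD31, had 8 counts in AAV-iIL12 and 12 in AAV-iLuc, Tek 7 and 4, and Kdr 4 and 1, while Cdh5, Emcn and Cldn5 were at 0 in every library. The 7 melanocyte markers summed to 27850 to 28740 CPM in AAV-iIL12, against 22840 to 25990 CPM in AAV-iLuc. Of these 3 rose, Pmel by 0.575, Mlana by 0.38 and Mitf by 0.25 on the log2 scale, 0 fell and 4 did not pass, and the part of a larger share of melanocytic cells in the levels of the antiviral genes was not tested. The 10 antiviral genes together reached 2157 to 2510 CPM in AAV-iIL12, against 264 to 462 CPM in AAV-iLuc. Total counts were 16356653 to 19080587 per library.

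Transcripts of type I and type III interferons were near absent. Of 20 such genes, which include Ifnb1 and the Ifna family, 16 had 0 counts in every library, and the 20 together had 6 counts in AAV-iIL12 and 2 in AAV-iLuc. Ifng, which encodes interferon gamma, had 14, 15 and 3 counts in AAV-iIL12 and 1, 0, 0 and 0 counts in AAV-iLuc. With all 7 libraries none of these ligands passed the low-count filter. Ifng was tested and called higher in 2 alternatives, without AAV-iIL12 replicate 3 (edgeR adjusted p = 5.68e-04) and without the filter (edgeR adjusted p = 5.18e-05). The 4 other ligands that could be tested without the filter did not pass. Cells removed by the sort were not measured. T and NK cell markers also had some counts in the sorted cells, and the part of such cells in the Ifng counts was not tested.

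Receptor and kinase genes of the pathway had smaller log2 fold changes than the antiviral genes that rose. Among the 9 tested, 5 rose, 1 fell and 3 failed the test, with a median log2 fold change of 0.26. Jak2, a kinase of the interferon gamma receptor, rose by 1.28 ± 0.07, with 120 ± 5.68 CPM in AAV-iIL12, against 49.2 ± 3.92 CPM in AAV-iLuc. Ifnar2, a chain of the type I receptor, rose by 1.09, Ifnlr1, a chain of the type III receptor, by 0.75 and Jak1 by 0.38. Ifnar1, the other type I chain, had 135 ± 15.6 CPM in AAV-iIL12, against 121 ± 3.78 CPM in AAV-iLuc, and did not pass (edgeR adjusted p = 0.112), though it did without AAV-iIL12 replicate 1 (edgeR adjusted p = 0.00591). Ifngr2, a chain of the interferon gamma receptor named after its value was seen, fell by 0.23. The number that fell was 2 under scaling by library size or by upper quartile, or without AAV-iLuc replicate 2.

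Most transcription factor genes of the pathway rose. Of 8 tested 7 rose, with a median log2 fold change of 3.55, and Irf3, named after its value was seen, did not pass, with 30.2 ± 1.76 CPM in AAV-iIL12, against 33.7 ± 2.37 CPM in AAV-iLuc. Irf7, which amplifies type I interferon responses, had 98.3 ± 23.0 CPM in AAV-iIL12, against 6.02 ± 3.23 CPM in AAV-iLuc, and rose by 4.02 ± 0.31 (edgeR adjusted p = 7.30e-06). Irf1, an early target of interferon gamma, and Irf8 rose by 4.27 and 5.14, and without AAV-iLuc replicate 1 by 5.38 and 7.21. In that library Irf1 and Irf8 stood at 5.54 and 13.4 times the mean of the other AAV-iLuc libraries, against 2.11 times for Irf7. Stat2 and Irf9, which encode parts of the ISRE-binding complex and were named after their values were seen, rose by 3.34 and 1.64. Under the same 3 alternatives as for the receptors, 1 factor fell.

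Inhibitors of the pathway rose too, 3 of 4 tested. Socs1, which blocks Janus kinases, rose by 4.03 ± 0.25, Usp18, which removes ISG15 from proteins and dampens the type I receptor, by 3.85 ± 0.35, and Socs3 by 0.70 ± 0.17. Ptpn2, a phosphatase of JAK and STAT proteins, did not pass, at 49.2 ± 5.04 CPM in AAV-iIL12, against 44.0 ± 2.77 CPM in AAV-iLuc. Like all the antiviral genes that rose, Usp18 was highest in AAV-iIL12 replicate 1, at 1.82 times the mean of the other AAV-iIL12 libraries. Irf7 stood at 1.47 times that mean in the same library.

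**Figure D5:**
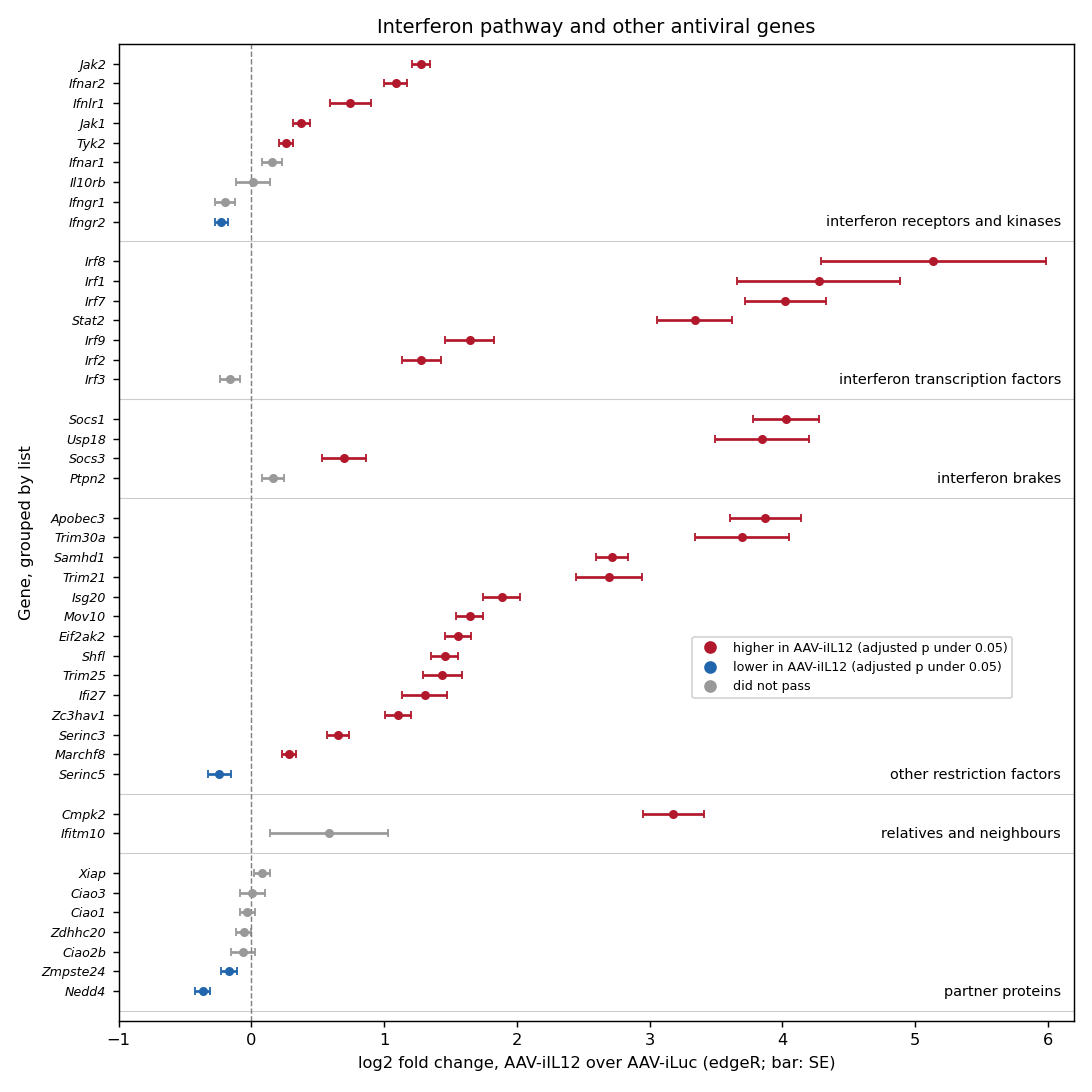
Log2 fold change (edgeR, with SE) of AAV-iIL12 over AAV-iLuc for tested genes of 6 lists (1 transcription factor is not drawn), coloured by whether they were higher, lower or did not pass. The largest values of transcription factors, pathway inhibitors and other restriction factors are 3.87 or more, and their smallest are -0.16, 0.16 and -0.24. Receptors, kinases and partner proteins lie between -0.37 and 1.28.

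Other restriction factors, cellular proteins that act directly on viruses, mostly rose with smaller changes. Of 14 tested members 13 rose and 1 fell, with a median of 1.51. Apobec3, a cytidine deaminase that mutates retroviral DNA, rose by 3.87 ± 0.27, with 40.0 ± 6.07 CPM in AAV-iIL12, against 2.71 ± 1.43 CPM in AAV-iLuc. Trim30a rose by 3.69, Samhd1, which depletes nucleotides needed for reverse transcription, by 2.72, Ifi27 by 1.30, Zc3hav1, which binds CpG-rich viral RNA, by 1.10 and Serinc3 by 0.65. The member that fell was Serinc5, named after its value was seen, by 0.24 (edgeR adjusted p = 0.0474). That call was lost when any of the 7 libraries was left out (edgeR adjusted p = 0.0598 to 0.145), with the replicate number as a block (0.101), with median-of-ratios scaling (0.0535), without the low-count filter (0.166), and in limma-voom and DESeq2 (adjusted p = 0.0557 and 0.131).

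Of 7 tested genes for proteins that work with the antiviral effectors, 0 rose, 2 fell and 5 failed the test, with a median of -0.06. Over all tested genes 23.5% were called higher and 23.7% lower, so 2 of 7 is near the share for any genes. Nedd4, a ubiquitin ligase that marks IFITM3 for degradation, fell by 0.37 ± 0.06 (edgeR adjusted p = 5.74e-04), with 1489 ± 111 CPM in AAV-iIL12, against 1922 ± 55.9 CPM in AAV-iLuc. Zmpste24, a protease known as a cofactor of IFITM proteins, fell by 0.17 (edgeR adjusted p = 0.0384). The Zmpste24 call was lost when any library other than AAV-iLuc replicate 2 was left out (edgeR adjusted p = 0.0506 to 0.1201), with the replicate block (0.0501), without the low-count filter (0.0831) and in DESeq2 (adjusted p = 0.0702). The genes for Ciao1, Ciao2b and Ciao3, proteins that insert iron-sulphur clusters and were named after their values were seen, had log2 fold changes of -0.03, -0.06 and 0.01 and did not pass.

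The genes whose profile over the 7 libraries lay nearest to 3 of the antiviral genes were found by Euclidean distance. It was taken between log2 CPM values, each centred on its own mean, with the 10 antiviral genes left out. Centring over all 7 libraries keeps the difference between groups, so genes of similar log2 fold change lie near each other. The genes nearest to Rsad2 had log2 fold changes of 3.18 to 3.43, against 3.34 for Rsad2. Nearest to Rsad2 were Tapbp (distance 0.14), which encodes the class I peptide-loading protein tapasin, Tnfrsf14 (0.19), Cmpk2 (0.23), the immunoproteasome subunit Psmb10 (0.31) and Psme2b (0.41). Nearest to Ifitm3 were Ifi35 (0.23), the proteasome activator Psme1 (0.23), Parp9 (0.26), Parp12 (0.29) and Ifih1 (0.30), which encodes the RNA sensor MDA5. Mx1 had no neighbour as close. Among its 5 nearest were H2-T23 (0.58), the pyroptosis effector Gsdmd (0.63), 9530082P21Rik (0.74) and Rasa4 (0.75), and with a prior count of 5 in place of 2 only 2 of the 5 remained. Among the antiviral genes themselves the closest pairs were Bst2 with Ifitm3 (0.34) and Rsad2 with Xaf1 (0.39), and Mx1 lay 2.25 from Mx2.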

How the data were processed

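Per the file headers, the authors made raw fragment counts per gene with featureCounts 1.6.0 over exons, with reverse-stranded and paired-end settings and GENCODE vM32. The command kept its default for multi-mapping reads, which are not counted, so similar genes such as the Ifitm family may be undercounted. The exon length of each gene is also deposited there. Per the submitters' processing notes STAR 2.7.9a and GRCm39 were used. Symbols came from GENCODE vM21 by gene identifier (52029 matched). The deposited counts were tested with edgeR 4.0.16 in R 4.3.3 (TMM, filterByExpr, quasi-likelihood F test, Benjamini-Hochberg adjustment over all 13990 genes tested, threshold 0.05), checked first on simulated counts. SEs derive from the F statistic. CPM uses the TMM factors of the tested genes. Within-library ratios were differences of log2 CPM (prior count 2), with two-sided exact permutation tests (scipy 1.17.1). Alternatives were other scalings, filters and thresholds, DESeq2 1.42.0, limma-voom (limma 3.58.1), the replicate number as a block and each library left out.

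The genes and lists were chosen with earlier results of these data known. All 10 antiviral genes are named. From each other list with more than 5 tested members the 3 most abundant and the 3 with the largest change are named, and from smaller lists every tested member, with exceptions stated. Some genes that this rule names are not reported here. Total counts were 16356653 to 19080587 per library, and no pair of replicates agreed within counting error. The labels give no batch.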

Additional observations from a re-analysis of the deposited data

Results flagged for a closer look

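In 4 of 52 sets of 4 AAV-iLuc values, 1 library lay far from the rest by Dixon's test, which chance does in about 1 in 20 sets. None was one of the 10 antiviral genes. Irf1 stood at 120.7 CPM in AAV-iLuc replicate 1 and at 16.8 to 24.5 CPM in the other AAV-iLuc libraries. Irf8 stood at 42.3 CPM in the same library and at 1.24 to 4.88 CPM in the others. Samhd1 stood at 64.1 CPM there, against 44.8 to 46.8 CPM. Zmpste24 stood at 75.8 CPM in AAV-iLuc replicate 3, against 67.3 to 67.9 CPM.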

How the results depend on the processing

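The same 8 antiviral genes rose, and 0 fell, under every alternative run. Their median log2 fold change with Ifitm2, and without the low-count filter also with Ifitm1, lay between 2.97 and 3.19 under other tools, scalings and filters. It was 2.95 with the replicate number as a block, and between 2.89 and 3.45 with a library left out. Over all genes 6608 were called, 3292 higher and 3316 lower, and with an absolute log2 fold change of at least 1 these were 1471, 817 and 654. Xiap, which did not pass, moved to -0.0105 with library size only. With 1 library left out the difference in log2 ratio lay between 1.64 and 1.80 for Mx1 to Mx2, 2.61 and 2.98 for Ifitm3 to Ifitm2, 2.505 and 3.24 for Ifitm3 to Ifitm1, and 0.15 and 0.18 for Rsad2 to Cmpk2, where 6 libraries cannot give p below 0.0667 or 0.1. Deviations of same-numbered libraries of the groups correlated at 0.0876, 0.0337 and -0.0485 over tested genes, and those of other pairs at -0.108 to 0.0732. The highest value was that of the replicate 1 pair, and all 8 genes that rose were highest in replicate 1 of both groups. With 3 and 4 libraries these values cannot decide whether the numbers pair them. With the replicate number as a block 5660 genes were called, 8 of them antiviral genes. The nearest genes of Rsad2 and Ifitm3 were compared under 3 other log scales, chosen after seeing the data, and at least 4 of 5 remained. Of the values of single genes and of nearest-gene lists under alternatives, 602 kept their direction and side of the threshold, 31 lost a call, all of them at a stricter threshold or in Serinc5 and Zmpste24, and 1 (Ifnar1) gained one. Depth limits Ifitm1 and the interferon ligands.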
